A study of Mus musculus with 24 samples.

Results

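The response of dorsal root ganglia to crush of the sciatic nerve was examined in mice of the CAST strain, a wild-derived strain that the series title gives as CAST/Ei. The sample titles chose 8 of the 24 libraries of the series: 4 libraries of injured CAST ganglia, taken 5 days after the crush, and 4 libraries of naive CAST ganglia. The other 16 libraries, 4 injured and 4 naive from each of the strains labelled C57 and DBA, served only to test where the CAST response differed. The series design calls the libraries of a group biological quadruplicates, and no transgene or drug is given for any group. Its treatment field names sham injury as the comparison while the titles of the uninjured samples say naive. Whether the naive mice had a sham operation cannot be told from the labels, nor can the number of ganglia or mice pooled in a library.

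A dorsal root ganglion holds the cell bodies of sensory neurons, each wrapped in satellite glia, together with Schwann cells, fibroblasts, vessels and resident macrophages. A crush cuts the axons of these neurons in the nerve while the sheath remains, and the neurons turn on transcription factors and growth genes and turn down genes of their transmitter and channel repertoire while the axon regrows. Macrophages gather around the injured cell bodies, and interferons, secreted antiviral proteins, act through their receptors on genes of antiviral defence and antigen presentation.

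The deposited values were converted to CPM (estimated reads per 1e6 reads of a library), so a gene is compared between libraries and not with other genes. Injured CAST libraries held 111.5, 125.6, 114.7 and 145.5 M reads (M, 1e6) and naive CAST libraries 104.0, 114.3, 100.4 and 104.8 M. The leading principal component of these 8 libraries carried 83.9% of their variance and separated injured from naive ganglia without overlap. The next component carried 5.14% and placed injured libraries 1 and 2 at 11.6 and 16.3, against −18.7 and −8.43 for injured libraries 3 and 4, with naive libraries between −3.57 and 3.42. The injured libraries fall in the same pairs for several gene lists below, among them interferon, sensory neuron, myelin and fibroblast genes. The tissue label was checked against markers: Avil, an actin-binding protein of sensory neurons, averaged 393 CPM in injured and 446 CPM in naive ganglia. Mog and Mobp, proteins of central myelin, stayed under 1 CPM in each group mean, at 0.271 and 0.307 CPM in injured and 0.291 and 0.399 CPM in naive ganglia. The 8 tested oligodendrocyte and astrocyte markers summed to 17.96, 18.8, 14.7 and 14.45 CPM in injured and 9.03, 13.1, 8.51 and 7.81 CPM in naive libraries. Other members make up most of these sums, which were higher in every injured than in every naive library. The low levels of Mog and Mobp thus do not stand for the whole list. After crush 2 of the 8 were called higher and 0 lower, against 26.7% and 22.3% of all tested genes.

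After crush, neuropeptide, growth and injury transcription factor genes and a broad set of immune genes rose in CAST ganglia, while channel, transmitter and receptor genes of sensory neurons fell. Of 26250 genes tested, 6998 (26.7%) were higher and 5846 (22.3%) lower in injured than in naive ganglia at an adjusted p under 0.05 (limma, Benjamini-Hochberg over all tested genes). Most changes were small: 1036 genes (3.95%) rose by more than 1 on the log2 scale and 342 (1.3%) fell by more than 1. All 4 injured libraries lay above all 4 naive libraries for 6635 genes (25.3%) and below them for 5652 (21.5%). With the libraries rescaled by their upper quartile, the counts were 6330 higher and 6522 lower, so the split between directions depends on the scaling, whereas the median log2 fold change of all genes moved by less than 0.1, at 0.02 against −0.00316 under that scaling.

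**Figure D1:**
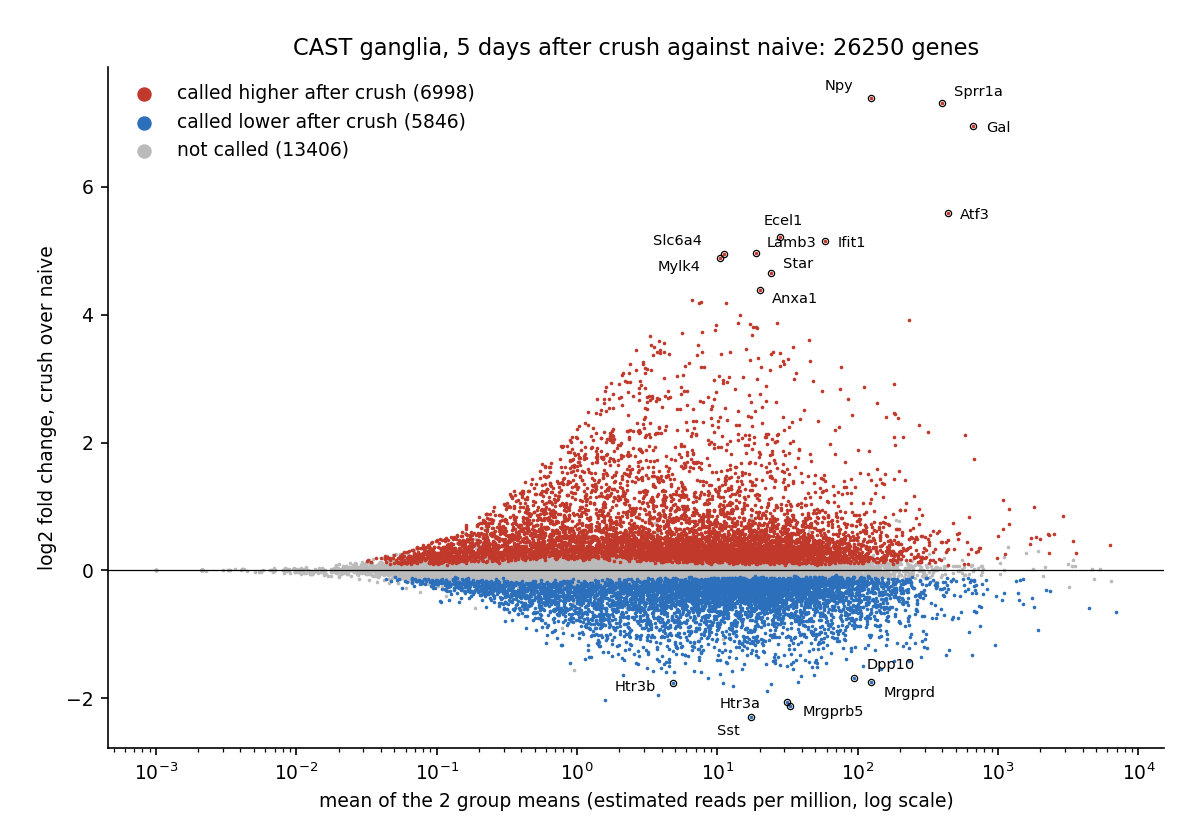
Log2 fold change of injured over naive CAST ganglia (vertical axis) against the mean of both group means in CPM (horizontal axis, log scale) for 26250 genes. Red points were called higher (6998) and blue points lower (5846). Npy, Sprr1a, Gal and Atf3 lie above 5 on the vertical axis, while Sst has the lowest value among the labelled genes, at −2.29.

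**Figure D2:**
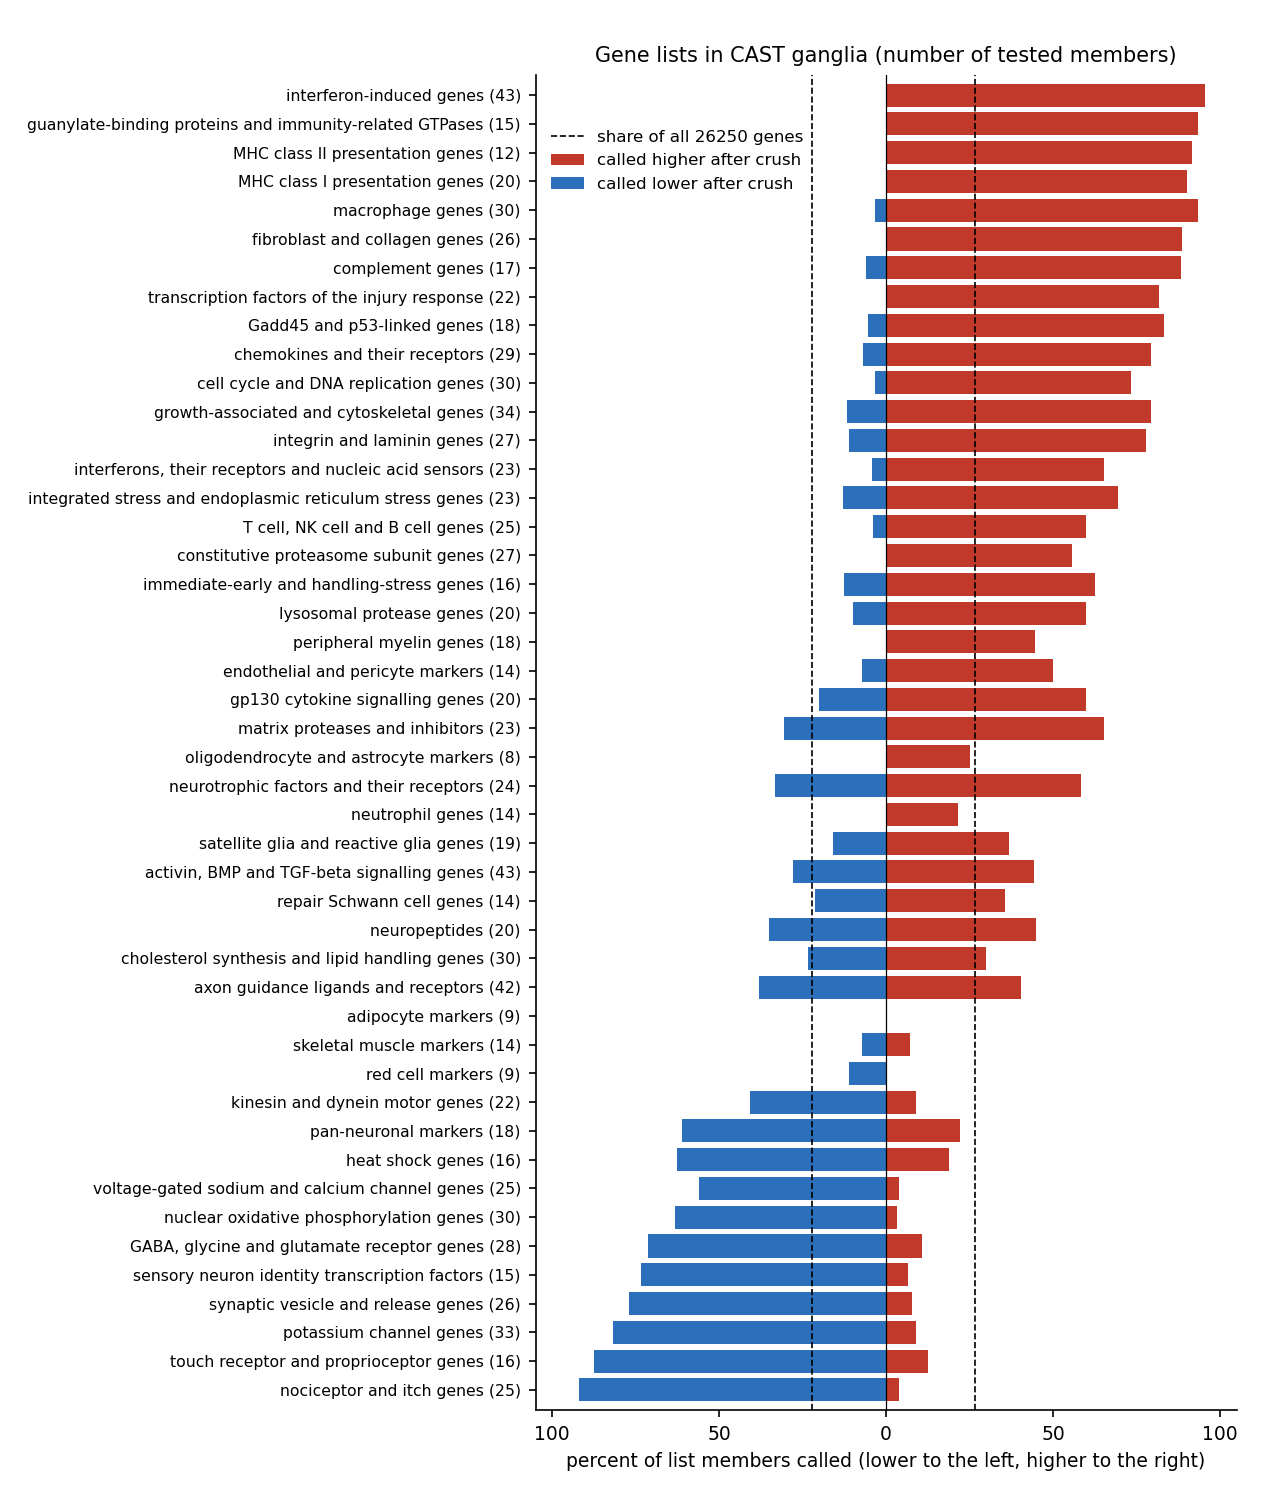
Share of the tested members of 46 gene lists that were called lower (blue, to the left) or higher (red, to the right) in injured CAST ganglia, with the number of tested members in brackets. Dashed lines mark the shares of all 26250 genes, 22.3% and 26.7%. Immune lists fill the top and sensory neuron lists the bottom.

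The injury transcription factors rose almost as a group. Of 22 tested members, 18 were higher and 0 lower, with a median log2 fold change of 0.79 against 0.02 for all genes. Atf3, a stress-induced factor that marks injured sensory neurons, had 834, 796, 968 and 832 CPM in injured and 23.7, 17.6, 13.8 and 14.97 CPM in naive ganglia. Every injured library lay far above every naive library, and naive library 1 was the highest of the naive group. The mean was 48.96-fold higher (log2 fold change 5.6, SE 0.13, adjusted p = 1.4e-19). Sox11, a factor of developing and regenerating neurons, had 177, 195, 244 and 165 CPM in injured and 27.8, 27.4, 23.8 and 24.7 CPM in naive ganglia, 7.54-fold higher without overlap. Nfil3, a leucine zipper factor induced in injured ganglia, rose 5.26-fold.

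The largest rise of any gene under the naming rule was that of Npy, neuropeptide Y, at chromosome 6, 49822710 to 49829507 on the plus strand of mm10. It had 225, 239, 276 and 246 CPM in injured ganglia, against 2.23, 0.892, 0.747 and 0.477 CPM in naive ganglia. The naive level was near 1 CPM and again highest in naive library 1, and the groups were far apart: 246 ± 21.6 CPM against 1.09 ± 0.781 CPM (SD, n = 4 each), 227-fold higher (log2 fold change 7.39, SE 0.19, adjusted p = 5.95e-18). Galanin, a neuropeptide of injured neurons encoded by Gal, had 1232, 1378, 1515 and 1168 CPM in injured and 18.7, 9.71, 7.21 and 7.79 CPM in naive ganglia, 122-fold higher on average. Nts, the neurotensin precursor, had 77.3, 70.7, 102 and 91.96 CPM in injured and 10.8, 10.8, 10.6 and 9.44 CPM in naive ganglia, 8.24-fold higher. Adcyap1, which encodes the peptide PACAP, had 238, 255, 315 and 259 CPM in injured and 48.9, 51.6, 54.03 and 44.5 CPM in naive ganglia, 5.37-fold higher.

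Other peptides moved the opposite way. Of 20 neuropeptide genes, 9 were higher and 7 lower. Sst, the somatostatin of itch neurons, had 6.17, 4.61, 3.78 and 8.38 CPM in injured and 25.7, 28.9, 30.3 and 30.7 CPM in naive ganglia. All injured libraries lay below all naive libraries, 5.04-fold lower on average (log2 fold change −2.29, SE 0.196, adjusted p = 1.83e-09). Tac1, the substance P precursor, had 73.3, 77.8, 67.8 and 71.2 CPM in injured and 184, 169.5, 166 and 139 CPM in naive ganglia, 2.27-fold lower, and Calca, the CGRP precursor, was 1.63-fold lower. In bulk ganglia, fewer cells of a type and less RNA per cell cannot be told apart.

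Among growth-associated and cytoskeletal genes, 27 of 34 were higher and 4 lower, with a median log2 fold change of 0.75. Sprr1a, a cornified-envelope protein that injured neurons use in axon outgrowth, had 703, 774, 914 and 778 CPM in injured and 7.85, 4.79, 2.87 and 3.48 CPM in naive ganglia. It was 167-fold higher, with no overlap and with naive library 1 highest among the naive libraries. Plaur, the urokinase receptor, had 36.5, 36.7, 39.8 and 35.2 CPM in injured and 3.97, 3.73, 3.42 and 3.44 CPM in naive ganglia, 10.2-fold higher. These are the only 2 of 19 list members with a promoter window (10.5%) that hold TGANTCA, the core bound by AP-1 factors such as Jun. That share is near the 7.38% of 15302 tested genes with a window. Shares in other lists were larger or smaller, at 9 of 31 interferon-induced genes (29%) and 1 of 17 injury transcription factors (5.88%). The windows run from 250 bases before to 50 bases after the start (RefSeq, GRCm38.p6), the motif was searched on both strands, and a match is a description and not a binding site. The stretches below run from 150 to 31 bases before the start, 5′ to 3′ in the direction of the gene, at chr3:92485912-92486031 (minus strand) for Sprr1a and chr7:24462333-24462452 (plus strand) for Plaur, and capitals mark the matches.
Sprr1a: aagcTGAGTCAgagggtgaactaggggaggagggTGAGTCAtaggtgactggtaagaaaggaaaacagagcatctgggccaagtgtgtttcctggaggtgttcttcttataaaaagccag
Plaur: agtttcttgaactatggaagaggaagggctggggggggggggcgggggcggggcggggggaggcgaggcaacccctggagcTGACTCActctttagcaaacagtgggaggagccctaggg

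Gap43, a growth cone protein, had 489, 481, 579 and 539 CPM in injured and 128, 120.0, 108 and 108 CPM in naive ganglia, 4.504-fold higher. Tubb6, a beta-tubulin, had 133, 136, 145 and 138 CPM in injured and 16.4, 13.6, 13.8 and 15.5 CPM in naive ganglia, 9.299-fold higher. Itga7, a laminin-binding integrin subunit that regenerating neurons use, was 4.35-fold higher, and Ecel1, a membrane peptidase of injured neurons, 53.01-fold higher. The 4 members that fell were the neurofilament genes Nefl, Nefm and Nefh and the collapsin response mediator Dpysl2. Nefh, the heavy neurofilament chain, had 1324, 1246, 1355 and 1403 CPM in injured and 2578, 2563, 2596 and 2447 CPM in naive ganglia, 1.91-fold lower. Nefm was 1.57-fold and Nefl 1.501-fold lower, but their annotated spans share 5233 bases on opposite strands, so part of their reads may be the same reads.

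Several genes with a known role in other tissues were among the largest rises. Slc6a4, the serotonin transporter, had 20.6, 25.3, 24.3 and 18.02 CPM in injured and 0.3397, 0.251, 0.165 and 0.145 CPM in naive ganglia, 97.99-fold higher. Fgf3, a fibroblast growth factor of ear and nerve development, had 13.6, 13.6, 17.8 and 12.99 CPM in injured and 0.391, 0.292, 0.308 and 0.289 CPM in naive ganglia, 45.3-fold higher, and injured library 3 stood above the other injured libraries. Neither group pair overlapped. Anxa1, a phospholipid-binding protein that dampens inflammation, rose 28.3-fold, Cckbr, a receptor of cholecystokinin, 29.2-fold, Wfdc3, a secreted protein of the WAP family, 44.7-fold, and 2010005H15Rik, of a stefin gene cluster with near-identical copies, 59.9-fold.

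**Figure D3:**
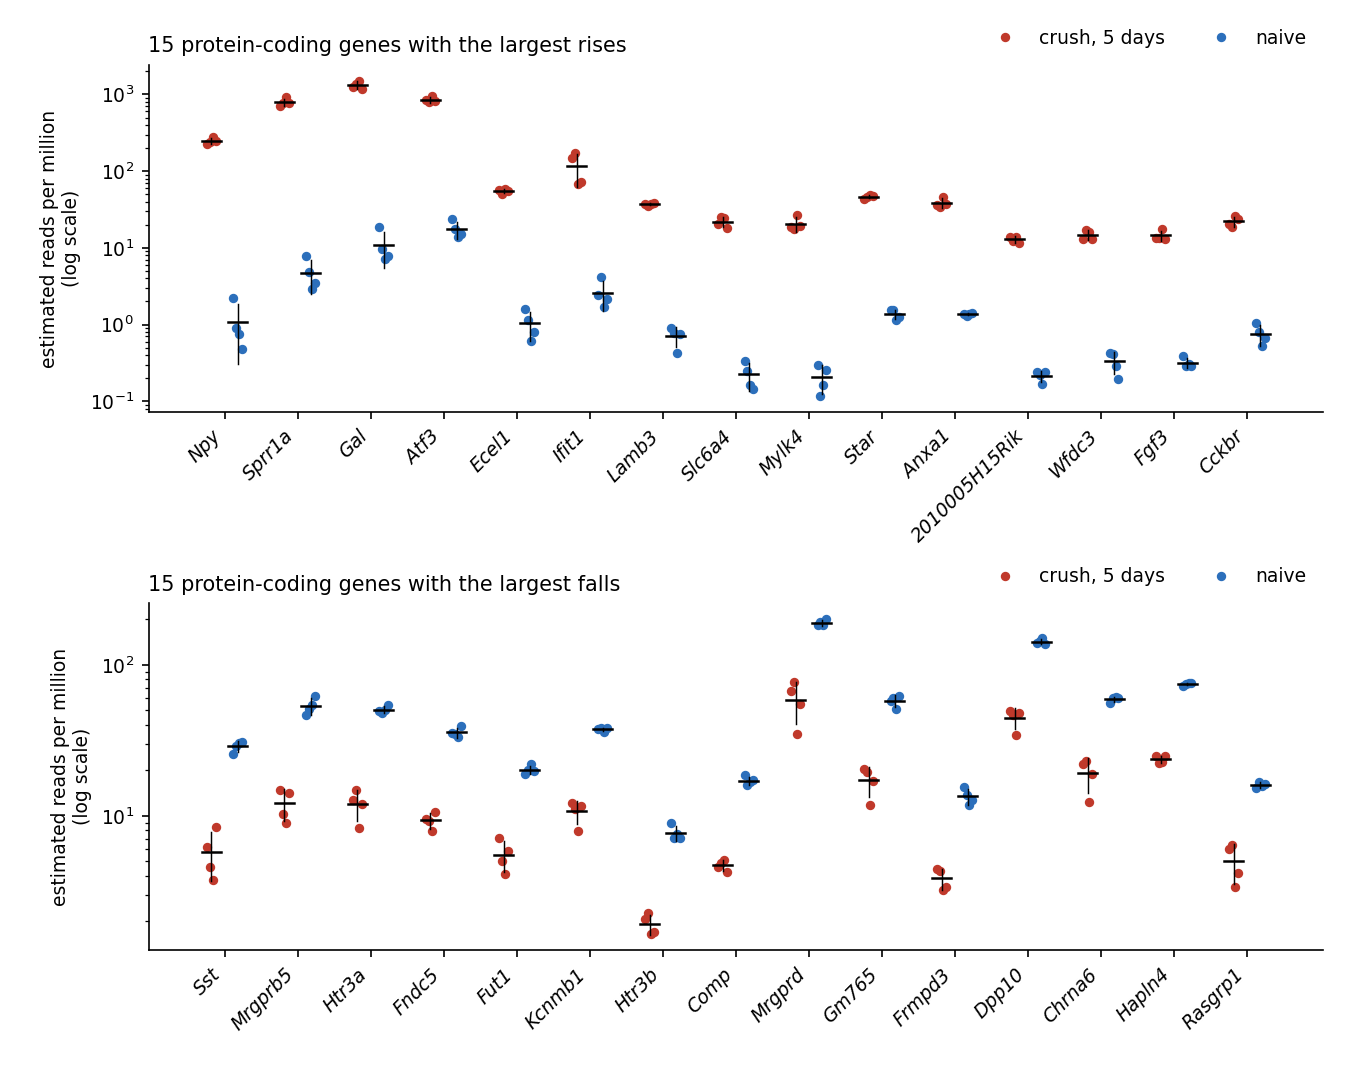
CPM on a log scale of the genes with the largest rises and falls in each of the 8 CAST libraries, injured libraries (red) left of naive libraries (blue), with bars for the mean and lines for ± SD. For Npy the injured libraries sit between 225 and 276 CPM, all above the naive libraries, and for Sst they sit between 3.78 and 8.38 CPM, all below them.

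Genes of pain, itch and touch neurons were lower after crush. Of 25 nociceptor and itch genes, 23 fell and 1 rose, with a median log2 fold change of −1.17. Scn10a, which encodes the tetrodotoxin-resistant channel Nav1.8, had 660.4, 721, 417 and 576 CPM in injured and 1284, 1324, 1333 and 1306 CPM in naive ganglia, 2.21-fold lower. Injured library 3 was the lowest and library 2 the highest of the injured group, without reaching any naive library. Mrgprd, an orphan receptor of non-peptidergic nociceptors, had 67.2, 77.5, 34.98 and 55.1 CPM in injured and 184, 194, 183 and 202 CPM in naive ganglia, 3.25-fold lower with injured library 3 again lowest. The member that rose was P2rx3, an ATP-gated channel, by 0.27 on the log2 scale, with means of 65.5 CPM in injured and 54.3 CPM in naive ganglia.

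The same held for the serotonin receptors and other members among the largest falls. Htr3a, a serotonin-gated channel subunit, had 12.8, 14.9, 8.36 and 12 CPM in injured and 49.5, 47.9, 50.1 and 54.1 CPM in naive ganglia, 4.2-fold lower, and its partner subunit Htr3b was 4.004-fold lower. Mrgprb5, an itch-linked Mas-related receptor gene, had 14.9, 10.3, 9.02 and 14.2 CPM in injured and 46.8, 50.7, 54 and 62.6 CPM in naive ganglia, 4.42-fold lower. Neither gene overlapped between groups. Chrna6, a nicotinic receptor subunit, was 3.103-fold lower and Rasgrp1, a Ras activator, 3.196-fold lower. Fndc5, the irisin precursor, was 3.82-fold, Hapln4, a link protein of perineuronal nets, 3.16-fold, Comp, a cartilage matrix protein, 3.64-fold, Frmpd3, a scaffold protein, 3.495-fold, and Gm765, with no role given here, 3.36-fold lower. Of 16 touch receptor and proprioceptor genes, 14 fell and 2 rose, with a median of −0.901. Etv1, a factor required by proprioceptors, was 2.78-fold lower. Of 15 transcription factors of sensory neuron identity, 11 fell and 1 rose, a rise not called under either other scaling or without injured library 2, 3 or 4 or naive library 1 or 4. Among those that fell were Mafa, a factor of touch neurons, which was 2.75-fold lower, and Isl1 and Pou4f1, factors that all sensory neurons share, at 1.298-fold and 1.49-fold lower.

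Excitability and synaptic genes fell widely, and pan-neuronal markers fell too. Of 18 such markers 11 fell and 4 rose, with a median of −0.28, and of all tested genes 22.3% fell and 26.7% rose. Whether the falls below go beyond that of pan-neuronal markers was not tested. Of 33 potassium channel genes 27 fell and 3 rose (median −0.79), of 25 sodium and calcium channel genes 14 fell and 1 rose (median −0.46), of 28 GABA, glycine and glutamate receptor genes 20 fell and 3 rose, and of 26 synaptic vesicle and release genes 20 fell and 2 rose. Dpp10, an auxiliary subunit of A-type potassium channels, had 49.5, 46.6, 34.5 and 47.8 CPM in injured and 140.2, 144, 149.6 and 136 CPM in naive ganglia, 3.199-fold lower. Kcns1, a modulatory potassium channel subunit, averaged 27.5 CPM in injured and 75.7 CPM in naive ganglia. Kcnmb1, a subunit of the BK potassium channel, was 3.496-fold lower, although Kcnip1 overlaps it on the opposite strand. Vamp1, a vesicle protein of transmitter release, had 102, 93.8, 94.01 and 108 CPM in injured and 266, 258, 272 and 262 CPM in naive ganglia, 2.67-fold lower. The 1 member of the sodium and calcium channel list that rose was Cacna2d1, the calcium channel subunit that binds gabapentin: it had 144, 157, 179 and 148 CPM in injured and 47.2, 43.2, 39.9 and 38.99 CPM in naive ganglia, 3.71-fold higher without overlap.

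Signalling genes moved in both directions. Of 24 neurotrophic factors and receptors 14 rose and 8 fell (5 without injured library 3): the receptor gene Gfra3, for artemin, rose 2.57-fold and Gdnf, a survival factor for sensory neurons, 3.53-fold, while Ntf3, the ligand of proprioceptors, was 5.85-fold lower. Of 20 gp130 cytokine genes 12 rose and 4 fell (2 without naive library 2 or naive library 3), with the feedback inhibitor Socs3 3.296-fold higher. Among 43 activin, BMP and TGF-beta genes 19 rose and 12 fell. Inhbb, an activin subunit, had 66.1, 76.4, 69.7 and 48.6 CPM in injured and 8.39, 6.61, 6.39 and 7.11 CPM in naive ganglia, 9.15-fold higher. Fst, which encodes the activin inhibitor follistatin, had 28.2, 29.6, 32.8 and 27.03 CPM in injured and 4.98, 3.31, 2.53 and 5.57 CPM in naive ganglia, 7.17-fold higher, so ligand and inhibitor rose together, and Nog, an inhibitor of BMPs, was 2.901-fold lower.

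Stress genes split by pathway. Of 23 integrated stress and endoplasmic reticulum stress genes 16 rose and 3 fell, led by Chac1, a glutathione-degrading target of ATF4, which was 4.697-fold higher. Of 18 Gadd45 and p53-linked genes 15 rose and 1 fell. Of 16 heat shock genes 3 rose and 10 fell, with a median of −0.25. Immediate-early and handling-stress genes, a list that includes Atf3, Fos, Junb and Egr1, rose in 10 of 16 members and fell in 2, with a median of 0.58. Their summed levels were 1405, 1345, 1512 and 1348 CPM in injured and 394, 413, 447 and 493 CPM in naive libraries. Atf3 alone had 834, 796, 968 and 832 CPM in injured and 23.7, 17.6, 13.8 and 14.97 CPM in naive libraries. Most of the difference between these sums is thus that of Atf3. The part of this list in the injury factor counts was not tested.

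Among genes of glia and connective tissue, matrix genes rose in nearly all members. Gfap, a filament protein of reactive glia, had 21.3, 20.4, 25.4 and 24.9 CPM in injured and 1.36, 1.82, 1.35 and 2.31 CPM in naive ganglia, 13.4-fold higher, within the span of the opposite-strand RNA Gm26668, whereas Fabp7, a lipid-binding protein of satellite glia, had 15.5, 14.1, 30.6 and 23.9 CPM in injured and 26.1, 37.5, 48.9 and 71.9 CPM in naive ganglia, 2.19-fold lower, with injured library 3 above naive library 1. Of 19 satellite and reactive glia genes 7 rose and 3 fell (5 under both other scalings), with a median of 0.097. Of all tested genes 26.7% rose and 22.3% fell. Of 18 peripheral myelin genes 8 rose and none fell, with a median of 0.15. This count was 3 without injured libraries 1 and 2 and 5 without injured library 1 or without naive library 2. Of 26 fibroblast and collagen genes 23 rose and none fell, with summed levels of 2115, 2036, 1982 and 1985 CPM in injured and 1014, 941, 1052 and 1207 CPM in naive libraries. Tnc, the matrix protein tenascin C, rose 7.54-fold and Col1a1, a collagen chain, 2.56-fold. Of 27 integrin and laminin genes 21 rose and 3 fell, and of 30 cell cycle genes 22 rose and 1 fell, among them Mki67, a marker of dividing cells, 3.04-fold higher.

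Housekeeping machinery moved by smaller steps. Of 27 constitutive proteasome subunit genes 15 rose and none fell, with a median of 0.17, and injured libraries 3 and 4 were the highest injured libraries for 20 of the 27, against 19.2% of all tested genes. Of 30 nuclear oxidative phosphorylation genes 19 fell and 1 rose, with a median of −0.16, and without injured libraries 1 and 2 the falls were 11. Of 22 kinesin and dynein motor genes 9 fell and 2 rose, and of 20 lysosomal protease genes 12 rose and 2 fell, with Scpep1, a serine carboxypeptidase, 4.02-fold higher. Of 23 matrix proteases and inhibitors 15 rose and 7 fell: Adam8, a metalloprotease of leukocytes, was 18.97-fold higher. Of 42 axon guidance genes 17 rose and 16 fell, with the semaphorin gene Sema6a 6.23-fold and the plexin receptor gene Plxna4 2.75-fold higher. Of 30 cholesterol and lipid genes 9 rose and 7 fell (4 without injured libraries 1 and 2), shares near those of all tested genes, 26.7% and 22.3%, with Hsd17b7, an enzyme of cholesterol synthesis, 3.497-fold higher.

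Macrophage genes rose almost without exception. Of 30 tested members 28 were higher and 1 lower, with a median log2 fold change of 2.01 and summed levels of 824, 706, 842 and 775 CPM in injured and 276, 296, 311 and 309 CPM in naive libraries. C1qa, a complement subunit made by macrophages, had 57.8, 44.5, 54.5 and 50.6 CPM in injured and 3.96, 3.78, 5.097 and 5.11 CPM in naive ganglia, 11.6-fold higher. Ctss, a lysosomal protease of antigen-presenting cells, had 37.9, 25.2, 36.5 and 29.4 CPM in injured and 1.44, 1.77, 1.88 and 1.82 CPM in naive ganglia, 18.7-fold higher. Csf1, the macrophage growth factor that injured sensory neurons make, had 42.1, 47.5, 44.8 and 42.5 CPM in injured and 4.13, 4.04, 3.64 and 3.32 CPM in naive ganglia, 11.7-fold higher, beside its receptor Csf1r at 5.55-fold. None of these groups overlapped. The member that fell was Ly86, a partner of the toll-like protein CD180, with 48.5, 45.9, 40 and 51.2 CPM in injured and 91.3, 102, 107 and 99.3 CPM in naive ganglia.

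Lists of other immune cells had fewer calls. Of 25 T cell, NK cell and B cell genes 15 rose and 1 fell, with a median of 0.23 and summed levels of 24.1, 23.6, 23.02 and 18.8 CPM in injured and 13.4, 13.9, 12.98 and 13.2 CPM in naive libraries. Ccl5, a chemokine of T cells and NK cells, rose 36.3-fold, and Trbc2, a T cell receptor constant chain, 13.4-fold. Of 14 neutrophil genes 3 rose and none fell, a smaller share than the 26.7% of all tested genes that rose, and their sum was 45.8, 21.6, 24.7 and 22.7 CPM in injured and 13.8, 28.2, 26.1 and 13.7 CPM in naive libraries, overlapping and highest in injured library 1. Of 17 complement genes 15 rose and 1 fell, the fall being that of Cd55, an inhibitor of complement activation, at 2.66-fold lower, while the complement component gene C4b rose 6.66-fold, with a near-identical copy in C4a. Of 29 chemokine and receptor genes 23 rose and 2 fell (none fell without injured library 3 or without naive library 1, and 1 without injured library 1 or without naive library 4), and Ccr2, the receptor of recruited monocytes, was 16.7-fold higher.

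Interferon-induced genes rose in 41 of 43 tested members and fell in none, with a median log2 fold change of 2.06. Ifit1, an antiviral protein that binds foreign RNA caps, lies beside Ifit2, Ifit3 and Ifit3b on chromosome 19, at 34640871 to 34650009. It had 147, 173, 67.4 and 72.4 CPM in injured and 2.39, 4.21, 1.71 and 2.13 CPM in naive ganglia. Injured libraries 1 and 2 stood above injured libraries 3 and 4, and all of them stood far above the naive libraries. The mean was 115 ± 53.3 CPM against 2.61 ± 1.101 CPM (SD, n = 4 each), 44.1-fold higher (log2 fold change 5.15, SE 0.296, adjusted p = 9.48e-12). Isg15, a ubiquitin-like modifier, had 20.9, 26.5, 10.3 and 16.01 CPM in injured and 0.942, 0.814, 0.757 and 0.773 CPM in naive ganglia, 22.5-fold higher. Irf7, the regulator that amplifies interferon transcription, had 8.42, 7.91, 3.53 and 4.38 CPM in injured and 0.174, 0.216, 0.2 and 0.203 CPM in naive ganglia, 30.6-fold higher. Usp18, a protease that removes ISG15 and limits interferon signalling, had 36.4, 37.4, 17.2 and 20.1 CPM in injured and 1.04, 1.44, 1.06 and 1.18 CPM in naive ganglia, so inducer and brake rose together. The 2 members without a call were Cmpk2, a mitochondrial nucleotide kinase (36.2 CPM in injured and 32.3 CPM in naive ganglia, adjusted p = 0.722), and Ifi27 (19.3 and 17.1 CPM, adjusted p = 0.0963).

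Genes upstream of these targets rose in part. Of 23 interferon, receptor and nucleic acid sensor genes 15 rose and 1 fell. Stat2 and Irf9, transcription factors of the type I interferon response, were 2.55-fold and 2.46-fold higher. Stat2 and the sensor genes Ifih1 and Ddx58 are counted in the interferon-induced list above. The receptor gene Ifnar1 averaged 12.5 CPM in injured and 11.4 CPM in naive ganglia and was not called. Cgas, the sensor of cytosolic DNA, rose 4.13-fold and Tlr9, an endosomal DNA receptor, 8.34-fold. Ifnb1 and Ifng, the genes of interferon beta and gamma, did not reach the filter of 10 estimated reads in 4 libraries.

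A short sequence was searched in the promoters of these genes. GAAANNGAAA, the core of the element bound by IRF factors, was found on either strand in 16 of 31 interferon-induced genes with a promoter window (51.6%) and in all 9 guanylate-binding protein and immunity-related GTPase genes with a window, against 3.8% of 15302 tested genes. It was found in 4 of 16 MHC class I presentation genes, in none of 6 MHC class II genes and in 1 of 20 upstream genes (5%). In lists outside the immune genes the share ran from none of 33 axon guidance genes to 3 of 16 neuropeptide genes (18.75%). Stat2, Ifih1 and Ddx58 hold the motif and are counted with the interferon-induced genes, so these shares depend on how genes were assigned to lists. The 120 bases shown run from 150 to 31 bases before the start, 5′ to 3′ in the direction of the gene (RefSeq, GRCm38.p6), with matches to the motif or its reverse complement in capitals: Ifit1 at chr19:34640739-34640858 (plus strand), Isg15 at chr4:156200849-156200968 (minus strand), Gbp3 at chr3:142559894-142560013 (plus strand) and B2m at chr2:122147537-122147656 (plus strand). They are shown because they differ in the number and spacing of matches.
Ifit1: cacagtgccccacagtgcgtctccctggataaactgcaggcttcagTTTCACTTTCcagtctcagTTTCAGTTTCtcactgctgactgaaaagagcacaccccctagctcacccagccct
Isg15: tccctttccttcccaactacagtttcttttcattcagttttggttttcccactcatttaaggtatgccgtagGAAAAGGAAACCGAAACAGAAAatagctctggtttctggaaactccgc
Gbp3: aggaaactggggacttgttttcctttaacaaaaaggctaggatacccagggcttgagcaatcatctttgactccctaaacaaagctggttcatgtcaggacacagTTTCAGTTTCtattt
B2m: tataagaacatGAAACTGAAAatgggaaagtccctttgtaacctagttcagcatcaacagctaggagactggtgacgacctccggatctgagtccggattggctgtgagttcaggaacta
Ifit1 has 2 matches on the reverse strand, 76 to 104 bases before the start, and Isg15 has 3 overlapping matches, 57 to 78 bases before it. Across all genes with a window, 243 of the 581 that hold the motif (41.8%) were higher in injured CAST ganglia, against 4007 of 14721 without it (27.2%). A difference in the same direction was found for TGANTCA: 408 of 1129 genes with that motif (36.1%) were higher, against 3842 of 14173 without it (27.1%). A match is a description of these letters and does not show that a factor binds there.

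Guanylate-binding proteins and immunity-related GTPases, which attack the vacuoles of intracellular pathogens, rose in 14 of 15 tested genes, with summed levels of 385, 496, 248 and 235 CPM in injured and 57.9, 58.7, 51.6 and 50.6 CPM in naive libraries. Gbp3 had 13.7, 15.7, 8.499 and 9.38 CPM in injured and 2.51, 2.58, 2.18 and 1.85 CPM in naive ganglia, 5.18-fold higher, and Irgm2 was 4.34-fold higher, its span overlapping that of Igtp. The spans of Gbp4, Gbp8 and Gbp9 also overlap each other on the same strand, those of Gbp8 and Gbp9 by 61910 bases. The counts and sums of these GTPase genes may thus hold some reads more than once. Of 20 MHC class I presentation genes 18 rose, with sums of 1079, 972, 968 and 876 CPM in injured and 412, 401, 402 and 420.0 CPM in naive libraries. H2-K1, a classical class I heavy chain, was 4.14-fold higher and Psmb8, an immunoproteasome subunit, 3.99-fold higher. B2m, the light chain of class I molecules, had 339, 279, 325 and 289.8 CPM in injured and 60.6, 53.9, 55.1 and 52.9 CPM in naive ganglia, 5.54-fold higher. Patl2, which overlaps it on the opposite strand, was listed at nearly the same level, 313 CPM in injured and 56.9 CPM in naive ganglia, so the reads of this pair cannot be told apart. Of 12 MHC class II presentation genes 11 rose. Cd74, the invariant chain, had 37.95, 23.6, 42.4 and 34.1 CPM in injured and 2.79, 3.605, 4.29 and 4.81 CPM in naive ganglia, 8.91-fold higher with injured library 2 the lowest of its group.

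The injured libraries did not carry these immune genes evenly. Injured libraries 1 and 2 were the highest of the injured libraries for 41 of 43 interferon-induced genes (95.3%), 15 of 15 guanylate-binding protein and GTPase genes and 16 of 20 class I genes (80%), against 30.4% of all tested genes. For class II genes this order held in 1 of 12 and for macrophage genes in 4 of 30. Summed interferon-induced levels were 2233, 2315, 1229 and 1411 CPM in injured and 342, 359, 343 and 318 CPM in naive libraries. The same order held outside the immune lists, for 19 of 25 sodium and calcium channel genes (76%), 18 of 25 nociceptor genes (72%), 13 of 18 myelin genes (72.2%) and 17 of 26 fibroblast and collagen genes (65.4%). It also held for 8 of 9 adipocyte markers, with sums of 79.3, 65.8, 19.6 and 27.3 CPM in injured and 64.9, 36.3, 25.3 and 57.9 CPM in naive libraries, and for 7 of 9 red cell markers, with 599, 536, 303 and 389 CPM in injured and 336, 466, 236 and 288 CPM in naive libraries. Their part in the interferon result was not tested, and none of 9 adipocyte markers was called, whereas 2 were lower without injured library 2. With injured libraries 1 and 2 left out, 41 interferon-induced genes were called higher and 1 lower, and 14 of the guanylate-binding protein and GTPase genes, 16 class I genes and 11 class II genes were called higher.

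**Figure D4:**
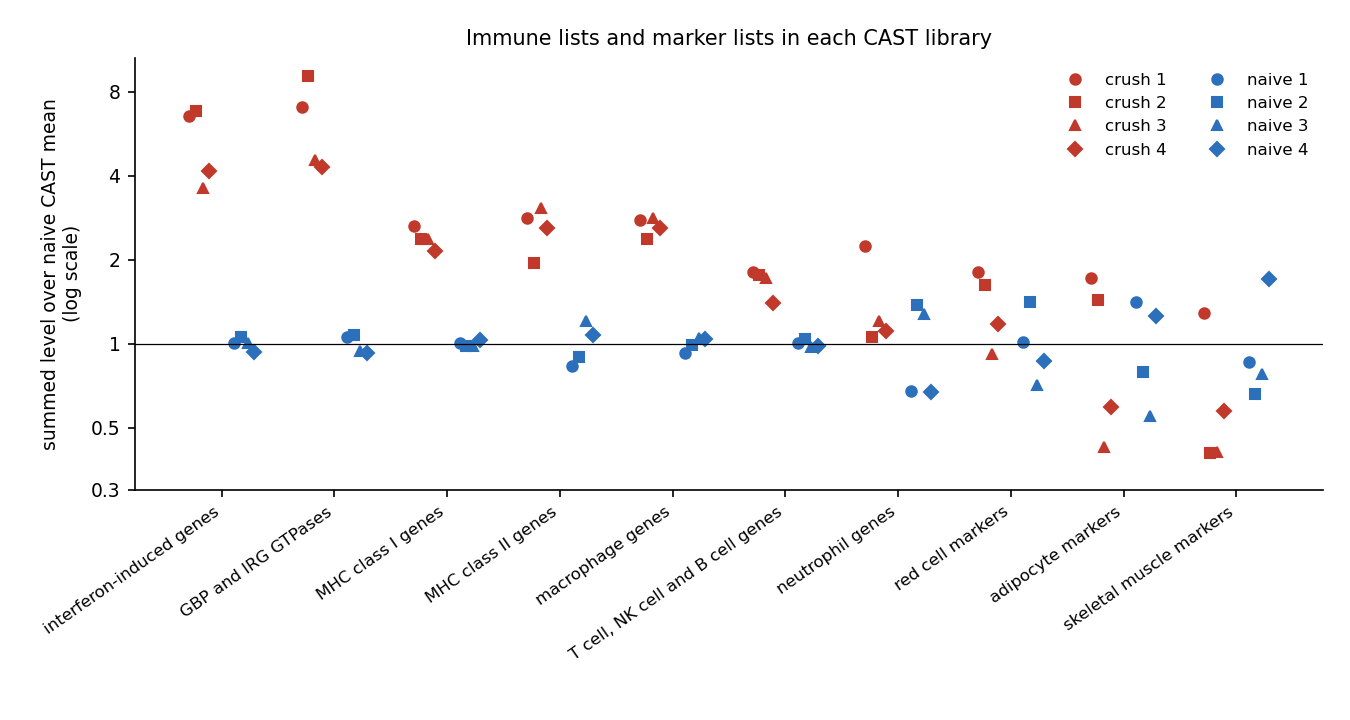
Summed CPM of immune and marker lists in each CAST library, divided by the mean of the 4 naive libraries (log scale), injured libraries (red) left of naive libraries (blue). Interferon and GTPase sums are highest in injured libraries 1 and 2 (circle and square), macrophage sums are similar in all 4 injured libraries, and the neutrophil, red cell, adipocyte and muscle sums overlap between groups.

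The response of CAST ganglia was then set against the mean of the C57 and DBA responses by an interaction contrast. It was higher in CAST for 2078 genes (7.92%) and lower for 1570 (5.98%), and under upper-quartile scaling for 1746 and 1991. Of the 2078, 1489 rose in CAST ganglia. Among the 46 lists, interferon-induced genes had the most members with a higher interaction: it was higher for 39 of 43 and lower for none, and 41 rose in CAST, 28 in DBA and 7 in C57 ganglia, where the shares of all genes that rose were 26.7%, 27.4% and 19.5%. The median log2 fold change of the list was 2.06 in CAST, 0.52 in DBA and 0.08 in C57 ganglia. For Ifit1 the interaction was 5.01 (SE 0.36, adjusted p = 4.23e-09): it averaged 115 CPM in injured and 2.61 CPM in naive CAST, 15.2 and 18.6 CPM in injured and naive C57, and 9.17 and 5.997 CPM in injured and naive DBA ganglia. Naive CAST ganglia thus had the lowest Ifit1 level of these 6 groups and injured CAST ganglia the highest.

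Rtp4, a receptor transporter protein induced by interferon, had 557, 567, 262 and 362 CPM in injured and 31.2, 34.6, 30.4 and 16.2 CPM in naive CAST ganglia, 93.5 and 95.9 CPM in C57 and 79.9 and 50.4 CPM in DBA ganglia, injured mean before naive mean (interaction 3.62, adjusted p = 1e-07). Ifit2 had 45.1, 61.9, 19.3 and 18.5 CPM in injured and 2.07, 1.95, 1.66 and 1.56 CPM in naive CAST ganglia, with an interaction of 3.91. The interactions of Ifit3 and Ifit3b, near-identical neighbours whose reads may be shared, were 3.63 and 3.65, and that of Usp18 was 3.63. The interaction was higher for 12 of 15 guanylate-binding protein and GTPase genes, 16 of 20 class I genes, 7 of 12 class II genes and 14 of 30 macrophage genes. It was lower for 3 other macrophage genes. Without injured CAST libraries 1 and 2 these counts were 36 of 43 for interferon-induced genes, 4 of 15 for the GTPases, 9 of 20 for class I and 7 of 12 for class II. Macrophage genes rose in 28 of 30 members in CAST, C57 and DBA ganglia alike, with medians of 2.01, 1.66 and 1.97. In the same order of strains, 11, 9 and 9 of 12 class II genes rose. For class I genes the counts were 18, 5 and 12 of 20, and for the GTPases 14, 0 and 12 of 15. The shares of all genes were 26.7%, 19.5% and 27.4%. The reads of all strains were aligned to a reference genome made from C57 mice, and its part in the differences between strains was not tested.

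**Figure D5:**
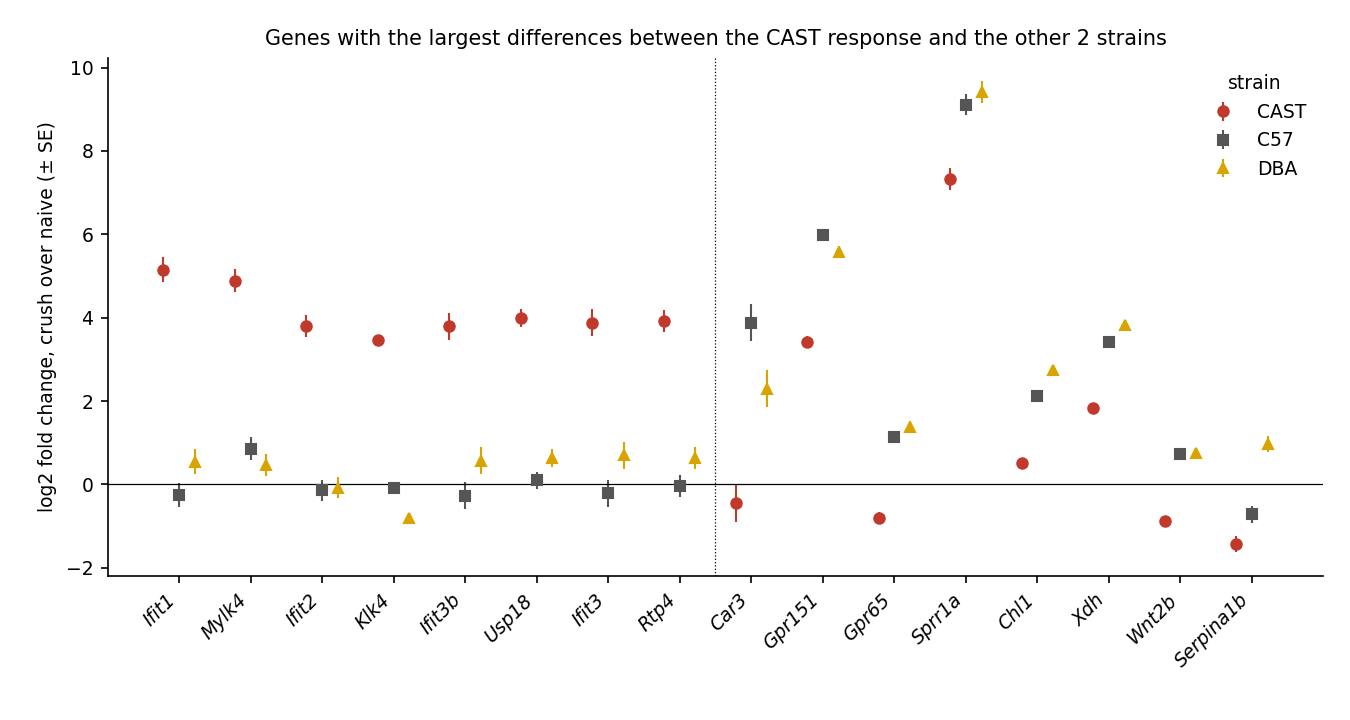
Log2 fold change of injured over naive ganglia (± SE from the fit, which shares a spread over all groups, 4 libraries a group) in CAST (red circles), C57 (grey squares) and DBA (yellow triangles) for the 8 genes with the most positive interaction, left of the dotted line, and the 8 with the most negative, right of it. Ifit1 stands at 5.15 in CAST and near 0 in C57, whereas Gpr151 and Sprr1a rose less in CAST than in the other strains.

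Genes outside the interferon list also differed. Mylk4, a myosin light chain kinase family member on chromosome 13, 32700834 to 32783954 on the minus strand, had 18.6, 17.5, 27.1 and 19.5 CPM in injured and 0.301, 0.116, 0.165 and 0.258 CPM in naive CAST ganglia. Its group means in the other strains were under 1 CPM, with 0.7499 and 0.193 CPM in injured and naive C57 and 0.951 and 0.747 CPM in injured and naive DBA ganglia, where the naive DBA libraries had an SD of 0.932 CPM, for an interaction of 4.22 (adjusted p = 5.93e-09). Klk4, a kallikrein protease known from tooth enamel, had 7.82, 7.13, 6.79 and 8.57 CPM in injured and 0.385, 0.193, 0.1697 and 0.2104 CPM in naive CAST ganglia, against 0.0661 and 0.101 CPM in C57 and 0.173 and 0.6701 CPM in DBA. Star, the cholesterol carrier of steroid synthesis, had 43.8, 46.4, 48.9 and 47.2 CPM in injured and 1.55, 1.53, 1.16 and 1.24 CPM in naive CAST ganglia, 34.03-fold higher, with an interaction of 2.63. Lamb3, a laminin chain of epithelial basement membranes, had 37.3, 35.6, 36.8 and 38.2 CPM in injured and 0.901, 0.781, 0.422 and 0.7502 CPM in naive CAST ganglia, 51.8-fold higher, with an interaction of 2.09.

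On the other side were genes with a smaller rise in CAST than in the other strains, or a fall. Chl1, a cell adhesion molecule of growing axons, had 265, 298, 296 and 266 CPM in injured and 208, 194, 194 and 187 CPM in naive CAST ganglia, 1.44-fold higher, against 360.2 and 82.3 CPM in injured and naive C57 and 534 and 79.2 CPM in injured and naive DBA ganglia (interaction −1.91, adjusted p = 2.81e-13). Gpr151, an orphan receptor of injured neurons, had 46.04, 49.1, 49.6 and 39.6 CPM in injured and 4.47, 3.79, 3.42 and 3.82 CPM in naive CAST ganglia, against 108 and 1.27 CPM in C57 and 97.1 and 1.56 CPM in DBA. Gpr65, a proton-sensing receptor of immune cells, fell in CAST, with 4.099, 3.82, 3.104 and 3.804 CPM in injured and 6.13, 6.81, 7.096 and 7.07 CPM in naive ganglia, whereas its C57 means were 1.98 CPM in injured and 0.6299 CPM in naive ganglia. Wnt2b, a Wnt ligand, likewise fell in CAST, with 49.9, 55.05, 32.9 and 43.8 CPM in injured and 77.8, 85.5, 80.1 and 84.3 CPM in naive ganglia, against C57 means of 32.1 and 19.01 CPM. Xdh, which encodes xanthine oxidoreductase, rose to 43.98, 45.3, 32.05 and 32.8 CPM in injured CAST ganglia, against 10.6, 11.4, 10.7 and 8.903 CPM in naive CAST ganglia, with an interaction of −1.802. Fut1, a fucosyltransferase, was 3.68-fold lower in CAST, with 7.11, 4.99, 4.08 and 5.82 CPM in injured and 19.1, 20.03, 22.1 and 19.7 CPM in naive ganglia, against C57 means of 0.186 CPM in injured and 0.202 CPM in naive ganglia and DBA means of 0.383 CPM in injured and 0.947 CPM in naive ganglia. Fut1 also fell in DBA ganglia. Car3, a carbonic anhydrase abundant in fat and on the adipocyte list, was not called in CAST (7.74, 10.4, 3.57 and 4.81 CPM in injured and 15.1, 6.62, 4.61 and 11.1 CPM in naive ganglia), with an interaction of −3.53, and the part of adipose tissue in it was not tested. Serpina1b, an antiprotease gene with near-identical neighbours, had an interaction of −1.56: it averaged 2.21 CPM in injured and 6.79 CPM in naive CAST, 0.672 and 1.43 CPM in injured and naive C57, and 9.38 and 4.59 CPM in injured and naive DBA ganglia. It also fell in C57 and rose in DBA, and the CAST response against that of C57 alone was not called (adjusted p = 0.104).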

How the data were processed

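Total RNA of dorsal root ganglia was extracted with Trizol and sequenced on libraries made by Illumina protocols, per the labels' protocols. Reads were aligned with STAR 2.3.0 to mm10, per the submitters' processing notes. How reads were counted (tool, annotation, strand, multiply mapped reads) is not stated in those notes or labels. The authors deposited FPKM values for 38215 gene IDs in 24 libraries, and each library's own file held the values of the series table. Times the genomic span of the gene (GENCODE M21, found for 36429 IDs, 95.3%), low values lay on whole steps of 1 read, a unit common to a library: 67.8% of values from 0.5 to 100 reads were whole within 0.05 reads, against 10% by chance. FPKM times span therefore gave CPM (estimated reads per 1e6 reads), and put the depth of the libraries between 51.4 and 145.5 M reads (M, 1e6). Where the authors' span differed from this annotation, the CPM of a gene is off by a constant factor, which leaves ratios of its means unchanged but moves its place against the filter and the pseudocount. The 1786 IDs without a span were left out.

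The filter asked for 10 or more estimated reads in 4 or more libraries, which 26250 genes passed and 10179 did not. In R 4.3.3, limma 3.58.1 (statmod 1.5.0) was fitted to log2(CPM + 0.5) with 6 group means over all 24 libraries and a mean-dependent, robust variance. This scale was used because a pseudocount of 1 on FPKM per full span would flatten most genes. Tests were two-sided, p-values were adjusted by Benjamini-Hochberg over all tested genes, and genes were called at an adjusted p under 0.05. Fold changes in the text are ratios of mean CPM, and log2 fold changes are on the log2(CPM + 0.5) scale, which understates changes of low genes. The interaction is the CAST response minus the mean of the C57 and DBA responses. Every adjusted p given is limma's and rests on the spread between libraries labelled as biological quadruplicates. That spread is estimated for each gene over all 6 groups and not for CAST alone, so the SE of a gene's response is the same in each strain.

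Named genes are protein-coding, called, without overlap between the groups of 4 and with a mean of at least 5 CPM in the higher group: the 15 largest rises and 15 largest falls, and for the interaction the 8 largest in each direction, without the overlap condition. Members of 46 lists (1017 genes, 9 below the filter) are named beside them for size or textbook role. The members, lists and rules were chosen with earlier results of these data known. As strand use is not given, overlapping genes may share reads: 185 of the 1008 tested list genes and 2 of 43 named genes had an overlapping gene at 30% or more of their own level. Promoter windows came from RefSeq (GRCm38.p6) and matched 15302 tested genes. Alternatives were other scalings, pseudocounts, filters, voom, a fit to the CAST libraries alone, a replicate block and leaving out libraries. Scripts were tested on simulated data with known changes. Tables and figures used Python 3.11.15 with pandas 2.3.3, numpy 2.4.6 and matplotlib 3.10.9.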

Additional observations from a re-analysis of the deposited data

Results flagged for a closer look

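Among groups of 4 libraries, the level of Fgf3 in injured CAST replicate 3 stood apart at 17.8 CPM, and the summed neutrophil markers stood apart in injured CAST replicate 1 at 45.8 CPM, by Dixon's criterion at the 95% level. In all 104 groups were examined, and chance alone flags about 1 group in 20.

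Other values were flagged because the crush response in CAST differed from the mean response in C57 and DBA by the interaction contrast. The log2 difference was positive for Ifit1 at 5.01, Mylk4 at 4.22, Ifit2 at 3.91, Klk4 at 3.89, Ifit3b at 3.65, Usp18 at 3.63, Ifit3 at 3.63, Rtp4 at 3.62, Star at 2.63, Lamb3 at 2.09, Anxa1 at 1.11, Wfdc3 at 0.82 and Gal at 0.71. It was negative for Car3 at −3.53, Gpr151 at −2.36, Gpr65 at −2.05, Sprr1a at −1.94, Chl1 at −1.91, Xdh at −1.80, Wnt2b at −1.61, Serpina1b at −1.56, Cckbr at −1.49, Fut1 at −1.44 and Sst at −1.23. Smaller negative values were those of Frmpd3 at −0.86, Mrgprb5 at −0.57, Ecel1 at −0.55, Fndc5 at −0.44 and Hapln4 at −0.44. Against each strain alone, some of these were not called: against DBA the CAST response differed by −0.27 for Gal (adjusted p = 0.585), 0.026 for Wfdc3 (adjusted p = 0.943) and −0.19 for Mrgprb5 (adjusted p = 0.658), and against C57 by −0.72 for Serpina1b (adjusted p = 0.104). For Ecel1 it was not called against either strain (adjusted p = 0.0856 against C57 and 0.0674 against DBA).

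Naive levels differed beside some of these responses. Sprr1a averaged 792 CPM in injured and 4.75 CPM in naive CAST ganglia, 897 and 1.24 CPM in C57 and 1061 and 1.08 CPM in DBA, so its smaller log2 response in CAST goes with a higher naive level and a somewhat lower injured level. Serpina1b averaged 2.21 CPM in injured and 6.79 CPM in naive CAST ganglia, and its neighbour Serpina1d shares 9999 bases of its annotated span on the same strand. Car3 averaged 46.5 CPM in injured and 2.82 CPM in naive C57 ganglia and 6.62 and 9.37 CPM in CAST, and the part of fat in these levels was not tested.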

How the results depend on the processing

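Across scalings, pseudocounts, filters, variance models, voom and left-out libraries, the counts of genes called in CAST and in the interaction stayed within 1.5 times the reported counts, and each named gene kept its direction and call. Upper-quartile scaling gave 6330 higher and 6522 lower genes and median-ratio scaling 6352 and 6521, against 6998 and 5846, so the share of calls that were higher was 49.3% under both scalings and 54.5% as reported. For the interaction that share was 46.7% and 50.2%, against 56.96%. The median log2 fold change of all genes moved by less than 0.1 under each scaling. A single library left out gave 6441 to 7212 higher and 5413 to 6098 lower genes, and 1749 to 2393 higher and 1334 to 1670 lower for the interaction.

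A replicate block on the label numbers gave 6848 higher and 5660 lower genes in CAST and 1913 and 1427 for the interaction. Same-numbered injured and naive CAST libraries had deviations with correlations of −0.0789, 0.0699, 0.0598 and −0.0404, and those of differently numbered libraries ran from −0.121 to 0.134. The labels do not say what the numbers stand for, and correlations this small over all genes cannot tell whether libraries were paired.

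Injured CAST libraries 1 and 2 were left out together, and injured library 1 with naive library 4 (highest in muscle markers), after the data were seen. Genes called were then 6145 and 6234 higher and 5402 and 5229 lower. The interaction was then higher for 4 and 5 guanylate-binding protein and GTPase genes, against 12, for 9 and 9 class I genes, against 16, for 7 and 7 class II genes, against 7, and for 36 and 38 interferon-induced genes, against 39. On the log2(FPKM + 1) scale 7 of the GTPase genes were higher in the interaction. Without injured library 3, neurotrophic genes that fell were 5, against 8, and satellite glia genes that fell were 5 under both scalings, against 3. Small counts moved most: the 1 identity factor that rose was also lost under the 1 CPM filter and the replicate block, the 1 lymphocyte gene that fell was lost without injured library 4 or naive library 2 or 4, the 1 upstream interferon gene that fell was lost without injured library 2 or naive library 2 or 3, and p53-linked genes that fell were 2 without injured library 1. Of the cell-type lists, myelin genes that rose were 3 without injured libraries 1 and 2 and endothelial genes 3, against 8 and 7, and lymphocyte genes 4 under a filter of 1 CPM, which tests fewer genes, against 15. The cause was not tested for the others. Depth limits genes of few reads: a gene at 0.1 CPM rests on about 10 reads in a library.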

Other observations

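A few genes were almost without reads in naive CAST ganglia and detected in each injured library. The ones named here were chosen after their values were seen, and their reads were counted from the whole steps of each gene's own values. En1, a homeobox factor of the developing brain and limb, had 560, 556, 1103 and 1000 reads in the injured libraries and 4 over all naive libraries, a ratio per unit of depth of 686 with a 95% counting interval of 268 to 2518. Injured libraries 3 and 4 were higher than injured libraries 1 and 2. Reg1, a secreted lectin made after tissue injury, had 111, 185, 215 and 208 reads in the injured and none in the naive libraries, at least 204-fold higher against a floor of 3 reads over the naive group. Hmx3, a homeobox factor of ear and sensory development, had 61, 80, 106 and 102 reads in the injured and 2 in the naive libraries, a ratio of 149 with an interval of 40.8 to 1232. Gzmb, the granzyme of cytotoxic lymphocytes, had 36, 43, 44 and 35 reads in the injured and none in the naive libraries, at least 44.9-fold higher against a floor of 3 reads over the naive group. These intervals and floors pool the libraries of a group and cover counting error only. The genes were picked for 3 or fewer estimated reads over the naive libraries and 30 or more in each injured library. Large ratios follow from that choice, so the ratios describe these genes and test nothing.

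By gene type, 5267 of 17983 protein-coding genes were higher in injured CAST ganglia and 4727 lower. Processed pseudogenes, near-copies of the messenger RNA of other genes, had 657 higher and 189 lower of 2395 (27.4% and 7.89%), and how reads shared with the parent gene were counted is not stated. Long intergenic RNAs had 164 higher and 186 lower of 1005.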
